A study of Mus musculus with 20 samples.

Results

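The proteasome genes were examined as the H3K4me3 regions that the deposited promoter annotation assigns to a gene named Psma, Psmb, Psmc, Psmd, Psme, Psmf or Psmg followed by a number, together with the H3K4me1 regions that share at least 1 bp with them. The rule found 45 of 22343 H3K4me3 regions, belonging to 40 genes, and 57 of 117165 H3K4me1 regions. H3K4me3 and H3K4me1 are trimethylation and monomethylation of lysine 4 of histone H3, measured by ChIP-seq, in which DNA bound to the modified histone is enriched with an antibody and sequenced. The cells were immortalized mouse embryo fibroblasts (iMEF) in which an shRNA against p19Arf had been expressed and which carry Ash2l fl/fl and Cre-ER, a recombinase active only with 4-hydroxytamoxifen (HOT). KO1 (iMEF1) and KO2 (iMEF2) came from different litters, and each was given 5 nM HOT (+HOT), which removes a floxed Ash2l exon, or the ethanol vehicle (-HOT) for 5 days. Each mark has 1 library per line and condition, so that the line is the replicate (n = 2 pairs). The p-values rest on the spread between these 2 lines, pooled over regions in part for H3K4me1 and in full for H3K4me3. For H3K4me3 a region's own spread between the lines thus does not enter its p-value.

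The 26S proteasome degrades proteins that carry ubiquitin chains. Its 20S core is a barrel of alpha rings, which form the gate, and beta rings, which hold the proteolytic sites. The 19S particle caps the barrel, with a base of ATPases that unfolds substrates and a lid that removes ubiquitin. In cells exposed to interferon, the beta subunits Psmb8, Psmb9 and Psmb10 replace Psmb5, Psmb6 and Psmb7 and form the immunoproteasome, which favours peptides for antigen presentation. The KMT2 enzymes, which methylate H3K4, need Ash2l as 1 of their core partners. H3K4me3 is a mark of the start sites of active genes, while H3K4me1 flanks them and marks enhancers.

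The sequence upstream of the start is shown for 3 genes whose promoters take different places in the results below. Psmb6 is a constitutive catalytic subunit, Psmb10 an immunoproteasome subunit with a large loss of H3K4me3 and Psmg1 an assembly chaperone. Each line gives the 250 bases before the annotated start in mm9, read 5′ to 3′ on the strand of the gene. Capitals mark matches, on either strand, to 6 motifs. The ETS core was searched as the letters CCGGAAG and the box bound by NF-Y as CCAAT. The box bound by Sp1 and its relatives, called GC box, was searched as GGGCGG. The antioxidant response element core was searched as TGACNNNGC, with any letter at each N. The box bound by the TATA-binding protein was searched as TATAAA, and the motif called E-box, bound by bHLH factors, as CACGTG. In these 3 windows GENCODE annotates no exon.
Psmb6, chr11:70338609-70338858, + strand: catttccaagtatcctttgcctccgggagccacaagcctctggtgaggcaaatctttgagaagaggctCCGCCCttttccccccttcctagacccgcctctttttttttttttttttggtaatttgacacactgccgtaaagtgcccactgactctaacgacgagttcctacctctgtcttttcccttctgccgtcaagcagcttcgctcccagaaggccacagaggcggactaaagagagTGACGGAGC
Psmb10, chr8:108462293-108462542, - strand: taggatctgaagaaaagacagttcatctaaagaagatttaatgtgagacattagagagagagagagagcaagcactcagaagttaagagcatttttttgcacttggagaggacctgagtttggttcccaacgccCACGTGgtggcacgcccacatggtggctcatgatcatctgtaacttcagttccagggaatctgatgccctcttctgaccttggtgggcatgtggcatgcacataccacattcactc
Psmg1, chr16:96212568-96212817, - strand: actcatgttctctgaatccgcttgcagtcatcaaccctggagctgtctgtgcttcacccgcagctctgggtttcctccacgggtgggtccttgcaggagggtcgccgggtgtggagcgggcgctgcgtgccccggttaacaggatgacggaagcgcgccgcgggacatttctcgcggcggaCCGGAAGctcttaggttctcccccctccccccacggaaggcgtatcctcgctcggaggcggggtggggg

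These matches describe the letters only. Some of the windows hold bases of annotated exons, with 250 in Psmb8, 232 in Psmd1 and 206 in Psma7. Over the 40 proteasome promoters, the ETS core was found in 15 (37.5%), against 12.1% of 12122 promoters with an H3K4me3 region. The antioxidant response element core, the letters bound by Nrf1 and Nrf2 at proteasome genes, was found in 7 of the 40 (17.5%), against 11.7% of all, and those were Psmb2, Psmb5, Psmb6, Psmc6, Psmd7, Psmd9 and Psmd12. A GC box occurred in 52.5% of proteasome promoters and 62.8% of all, CCAAT in 32.5% and 34.9%, TATAAA in 12.5% and 5.83%, and CACGTG in 10.0% and 8.11%. The median GC content of the windows was 55.2% in proteasome genes, with Psmc1 lowest at 44.8% and Psma7 highest at 77.2%, and 61.2% in all. Psmb10 had the fewest CG dinucleotides of the 40 (3, against a median of 15). Across the 40 genes, GC content and the change of H3K4me3 in +HOT were weakly related (Pearson r = -0.12, Spearman rho = -0.29, a description over genes that share the same libraries). The median H3K4me3 log2 ratio was -0.66 for the 15 genes with an ETS match and -0.72 for the 25 without.

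In vehicle-treated cells the proteasome regions tested below had a median of 423 scaled reads of H3K4me3 in KO1 and 1487 in KO2. The medians over all tested promoter regions were 297 in KO1 and 1127 in KO2. By the study's lists of promoters by level, 36 of the 45 regions were High in both lines (80.0%), against 41.1% of 15584 promoter regions. Those lists rest on the counts of -HOT and +HOT together, so that they depend in part on the change in +HOT. The same holds wherever regions High in both lines serve as a background below. Psmb8 was Medium in both lines, and Psmc3ip, Psme1 and Psmg4 were High in KO1 and Medium in KO2. The other 5 regions are weak second regions of Psmc4, Psmd3, Psmd8, Psmd11 and Psmd12. Per kb of region, the strongest region of each gene had between 399 (Psmd10) and 941 (Psmd1) scaled reads in KO2 -HOT, and between 93.8 (Psmd10) and 293 (Psmd1) in KO1 -HOT. These reads depend on the depth of each library. H3K4me3 regions held 2441698 reads in KO1 +HOT, 6116382 in KO1 -HOT, 6978481 in KO2 +HOT and 17708078 in KO2 -HOT, and H3K4me1 regions 6157647 to 9048056. The deleted exon of Ash2l itself is not measured by these regions, and the H3K4me3 region at its promoter had 281 and 976 reads in +HOT of KO1 and KO2, against 469 and 1839 in -HOT. All 10 fibroblast markers looked up had an H3K4me3 region (1180 to 4435 scaled reads in KO2 -HOT), whereas 8 of 13 markers of epithelial, blood, endothelial, pluripotent and neural cells had none and the other 5 had 31.7 to 567. In KO1 -HOT the medians of the markers with a region were 842 and 72.0, but the lists overlapped. There the fibroblast marker Thy1 had 77.3 reads and the epithelial marker Cdh1 84.0.

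At 44 of the 45 proteasome regions +HOT had less H3K4me3 than -HOT in KO1 and in KO2, and the median loss was smaller than over all promoters. In 41 of them each line had over 20 reads in at least 1 condition, and these entered a limma test on log2(reads + 1) blocked by line. Of these 13 fell and 0 rose, and 28 did not pass. Among all 16129 tested regions 86.5% fell and 0.0744% rose, among promoter regions 85.2%, and among regions High in both lines 71.6%. In the median over the tested proteasome regions, +HOT had 65.6% of the -HOT reads in KO1 and 55.5% in KO2, whereas the median over all tested regions was 47.4% in KO1 and 32.2% in KO2. For regions High in both lines the medians were 67.2% in KO1 and 57.0% in KO2 over the 36 proteasome regions, and 58.3% in KO1 and 47.5% in KO2 over all 6408. On the log2 scale the median was -0.70 for the 41 proteasome regions, -1.36 for all tested regions and -0.93 for those High in both lines.

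How many proteasome regions pass depends on the model of the spread. limma gave every H3K4me3 region the same standard error of 0.391, so that a mean log2 ratio of at least 0.79 in size was needed, and 28 proteasome regions lay inside it. limma with an intensity trend called 38 of 41 as fallen, where the background was 92.5% of all regions, 94.4% of promoter regions and 98.3% of those High in both lines. edgeR with the authors' scaling called 39, where the background was 94.5% of all regions, 95.8% of promoter regions and 98.6% of those High in both lines. The values are scaled within a line only, so that without the block the difference in reads between the lines enters the spread. Without the block limma called 0 of the 41, and 0 of all 16129 regions (0%). At an unadjusted p under 0.05 the fallen were then 0 of the 41, against 679 of all 16129 and 2 of the 6408 High in both lines. How far the difference in reads lowers these counts was not tested. The values were scaled by coverage with no external standard, so that a change shared by most regions depends on the scaling. The median log2 ratio over all tested regions was -1.06 in KO1 and -1.63 in KO2. With that median set to 0 in each line, 23 of the 41 proteasome regions were higher in +HOT and 2 were lower by limma, against 9.42% higher and 23.2% lower of all tested regions, and 19.2% higher and 0.593% lower of those High in both lines. The direction of most proteasome regions thus turns with the scaling. With TMM in edgeR 33 rose and 2 fell, against 26.6% risen and 25.1% fallen of all tested regions, and 58.6% risen and 3.53% fallen of those High in both lines. With DESeq2's size factors 30 rose and 1 fell, against 18.4% risen and 11.8% fallen of all, and 42.5% risen and 1.31% fallen of those High in both lines. Under the median scaling the 2 lower regions were those of Psmb8 and the weak upstream region of Psmd3. Below, the verb fell refers to the authors' scaling, and values relative to the median are given beside it.

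**Figure D1:**
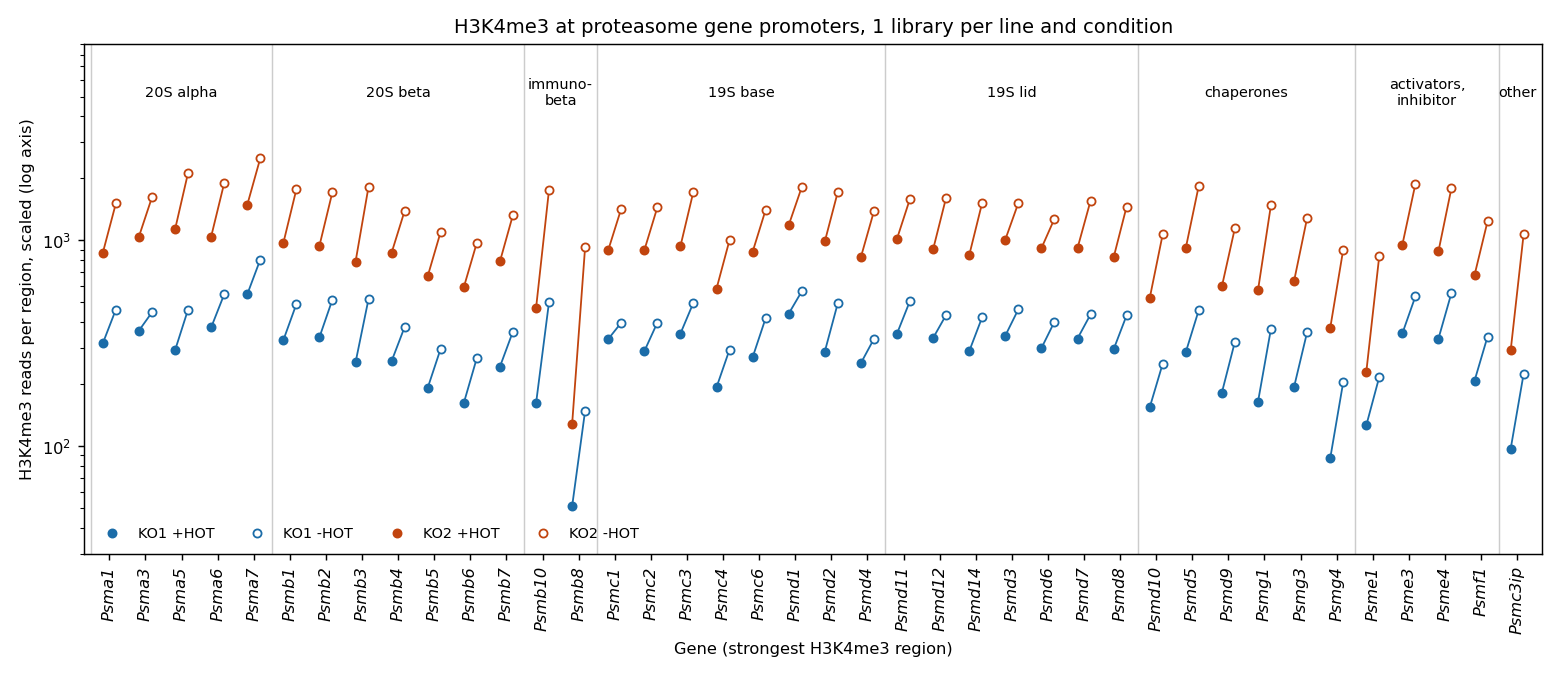
H3K4me3 reads (scaled, log axis) in the strongest region of each of 40 proteasome genes, grouped by role. Filled points are +HOT and open points -HOT, blue is KO1 and red KO2, and each point is 1 library. In every pair the +HOT point lies below the -HOT point in reads, with wide gaps at Psmb8, Psmb10, Psmc3ip and, in KO2, Psme1. With the median of all regions set to 0 most of the 40 genes have a ratio above 0. Psmb8 (-0.84), Psmb10 (-0.43) and Psmc3ip (-0.20) then stay below 0.

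Of the 5 alpha-ring genes with a region 0 passed limma, with a median log2 ratio of -0.67. Psma3, whose product sits in the ring that gates the core, had 364 reads in KO1 +HOT against 446 in KO1 -HOT, and 1043 in KO2 +HOT against 1617 in KO2 -HOT. Its mean log2 ratio of -0.46 was the nearest to 0 of the ring, and it stood 0.88 above the median of all tested regions (limma adjusted p = 0.00404). Psma1 was the median member, with 316 and 871 reads in +HOT of KO1 and KO2, against 461 and 1510 in -HOT (log2 ratio -0.67). Psma5 had the lowest ratio at -0.78 (limma adjusted p = 0.052), with 292 reads in KO1 +HOT against 461 in KO1 -HOT and 1130 in KO2 +HOT against 2125 in KO2 -HOT. Relative to the median, 4 of the 5 were higher by limma, the exception being Psma5 (0.56, adjusted p = 0.073). The Psma7 region also covers the start of Ss18l1, so that its reads cannot be assigned to either gene.

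In the constitutive beta ring 1 of 7 regions fell, that of Psmb3, and 5 of 7 were higher relative to the median by limma (not Psmb2 and Psmb3). The catalytic subunits are Psmb5 (chymotrypsin-like), Psmb6 (caspase-like) and Psmb7 (trypsin-like). Psmb5 had 192 reads in KO1 +HOT against 298 in KO1 -HOT, and 670 in KO2 +HOT against 1102 in KO2 -HOT, a log2 ratio of -0.67. Psmb6 had 162 and 592 reads in +HOT of KO1 and KO2, against 268 and 973 in -HOT (-0.72). Psmb7 had 243 and 789 in +HOT, against 360 and 1328 in -HOT (-0.66). Thus 59.4% to 67.5% of the reads were left at these 3 promoters in either line, and 0 of the 3 passed limma (adjusted p = 0.0724 to 0.0981). Psmb4 had the ratio nearest to 0 of the ring (-0.61). Psmb3, a non-catalytic beta subunit, fell by 1.12 on the log2 scale (limma adjusted p = 0.0069), with 255 reads in KO1 +HOT against 518 in KO1 -HOT and 787 in KO2 +HOT against 1822 in KO2 -HOT.

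Both immunoproteasome subunits with a region fell, with a median log2 ratio of -1.98, against -0.66 over the 27 constitutive 20S and 19S genes. The difference between the role groups was tested neither here nor below. Psmb10 (chr8:108460357-108462536), the inducible counterpart of Psmb7, had 161 reads in KO1 +HOT against 502 in KO1 -HOT, and 467 in KO2 +HOT against 1763 in KO2 -HOT. That left 32.1% in KO1 and 26.5% in KO2, a fall of 1.77 on the log2 scale (limma adjusted p = 1.85e-05), with -HOT values inside the range of the constitutive genes. Psmb8 (chr17:34334230-34335783), the counterpart of Psmb5, had 51 reads in KO1 +HOT against 149 in KO1 -HOT, and 128 in KO2 +HOT against 929 in KO2 -HOT. With 34.3% left in KO1 and 13.8% in KO2 it had the lowest mean log2 ratio of the proteasome regions, -2.19 (adjusted p = 1.68e-07), and it was also lower than the median of all regions (-0.84, adjusted p = 0.00617). Psmb10 did not pass against that median (-0.43, limma adjusted p = 0.169). The third inducible subunit, Psmb9, has its start under the region that the annotation names for Tap1, a peptide transporter gene with which it shares a promoter. That region had 137 reads in KO1 +HOT against 268 in KO1 -HOT, and 444 in KO2 +HOT against 1546 in KO2 -HOT, a log2 ratio of -1.38.

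The genes of the 19S particle had the medians nearest to 0, by less than the standard error of a region. In the base, which holds the ATPases Psmc1 to Psmc6 and the scaffolds Psmd1 and Psmd2, 0 of 8 tested regions passed, and the median was -0.61. Psmc1 had 331 reads in KO1 +HOT against 398 in KO1 -HOT and 896 in KO2 +HOT against 1424 in KO2 -HOT, the ratio nearest to 0 of the base (-0.47). Psmc6 lay near the middle, with 270 and 879 reads in +HOT of KO1 and KO2 against 418 and 1405 in -HOT (-0.65). Psmd2, the scaffold that receives ubiquitin-like shuttle proteins, had the lowest ratio (-0.79, limma adjusted p = 0.0502), with 288 and 987 reads in +HOT of KO1 and KO2 against 495 and 1720 in -HOT. Relative to the median of all regions 7 of the 8 were higher by limma, the exception being Psmd2.

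In the lid the strongest regions of all 7 genes were higher relative to that median, and 0 of the 7 fell by limma with the authors' scaling. Psmd6 (chr14:14952142-14953581), a structural lid subunit, had the largest share of H3K4me3 left in KO2 among the 40 genes. It had 299 reads in KO1 +HOT against 401 in KO1 -HOT, and 915 in KO2 +HOT against 1271 in KO2 -HOT, a log2 ratio of -0.45, or 0.89 above the median (adjusted p = 0.00344). Psmd14, the deubiquitinase of the lid, had 289 and 846 reads in +HOT of KO1 and KO2, against 423 and 1524 in -HOT (-0.70). Psmd11, which lay in the middle of the group, had 352 and 1018 in +HOT, against 508 and 1593 in -HOT (-0.59).

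Of the 5 genes with a second H3K4me3 region, 4 are in the lid, and the second region was weak in each. At Psmd3 a region of 603 bp (chr11:98543052-98543654) centred 515 bp upstream of the start had 16 reads in KO1 +HOT against 39.01 in KO1 -HOT, and 35 in KO2 +HOT against 249 in KO2 -HOT, and it fell by 2.01 on the log2 scale (limma adjusted p = 1.28e-06). In KO1 it passed the read minimum only through -HOT, so that it had to be lower there. Its fall is a description, though it is 1 of the 13 fallen regions. For this region the adjusted p was 0.0151 by limma with a trend and 0.0108 by edgeR with the authors' scaling. The strong region over the start of the same gene (chr11:98543783-98545831) had a ratio of -0.51, with 344 and 1008 reads in +HOT of KO1 and KO2 against 461 and 1516 in -HOT. The second regions of Psmc4, Psmd8, Psmd11 and Psmd12 had 3.75 to 18 reads in KO1 -HOT and 30.7 to 90.1 in KO2 -HOT and were not tested. Their ratios were -1.64 for Psmc4, -1.17 for Psmd8, -1.51 for Psmd11 and -0.75 for Psmd12. That of Psmd12 was the only proteasome region not lower in both lines, with 4 reads in KO1 +HOT against 3.75 in KO1 -HOT. The strong regions of these genes had ratios of -0.69 for Psmc4, -0.68 for Psmd8, -0.59 for Psmd11 and -0.60 for Psmd12. The annotated start of Psmd8 lies in the gap between its 2 regions.

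Factors that help assemble the proteasome had a median log2 ratio of -0.91, and those that regulate it one of -0.83. All 6 assembly chaperones with a region fell by limma, as did 1 of the 27 constitutive 20S and 19S genes at its strongest region (Psmb3). Psmg1 (chr16:96211415-96213553), which with a partner builds the alpha ring, had 164 reads in KO1 +HOT against 372 in KO1 -HOT, and 572 in KO2 +HOT against 1487 in KO2 -HOT, a fall of 1.28 (adjusted p = 0.00203). Psmg3 fell by 0.94 (adjusted p = 0.0211) and Psmg4, its partner in ring assembly, by 1.24. The base chaperones Psmd5, Psmd9 and Psmd10 had log2 ratios of -0.84, -0.88 and -0.87. The Psmd10 region also covers the start of Atg4a, so that its reads cannot be assigned to either gene. With the median of all regions set to 0 none of the 6 differed from it by limma (0.07 to 0.50, adjusted p = 0.108 to 0.851), and 71.6% of regions High in both lines fell in the first test.

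Of the activators and the inhibitor, Psme1 and Psme4 fell. Psme1 encodes the alpha subunit of the interferon-inducible PA28 cap, and its ratio was lower in KO2 than in KO1. It had 126 reads in KO1 +HOT against 217 in KO1 -HOT (58.1% left), and 229 in KO2 +HOT against 842 in KO2 -HOT (27.2% left), a mean fall of 1.33 (limma adjusted p = 0.00136). Psme4 (PA200, a nuclear activator) fell by 0.88, with 333 and 886 reads in +HOT of KO1 and KO2 against 555 and 1797 in -HOT. Psme3 (PA28 gamma) had a ratio of -0.78 and Psmf1, an inhibitor of the core, one of -0.79, both just short of the threshold (adjusted p = 0.0515 and 0.0508). Psmc3ip is taken in by its name alone, since it encodes a partner of Psmc3 that acts in meiotic recombination and is no proteasome subunit. It fell by 1.54, with 97 and 292 reads in +HOT of KO1 and KO2 against 225 and 1076 in -HOT.

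**Figure D2:**
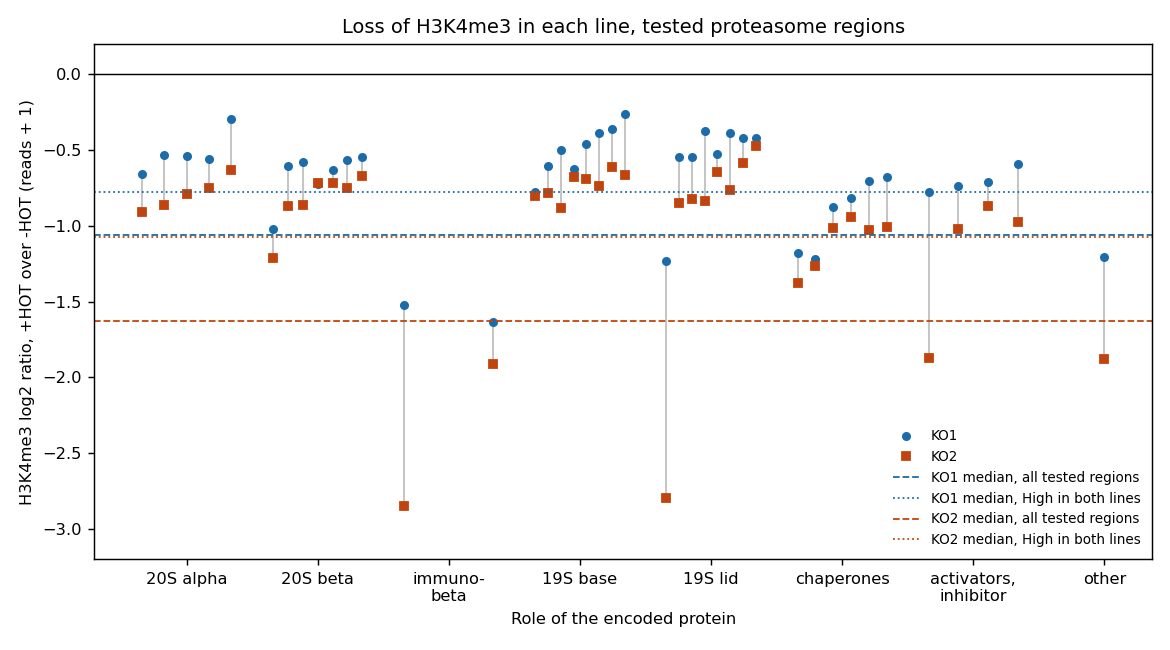
H3K4me3 log2 ratio of +HOT over -HOT in KO1 (circles) and KO2 (squares) for the 41 tested proteasome regions, grouped by role, with a grey line joining the lines of 1 region. Dashed lines are the medians over all tested regions (-1.06 in KO1, -1.63 in KO2) and dotted lines those over regions High in both lines. Most 20S and 19S points lie above the dashed line of their own line, and the immunoproteasome points lie below it, so that the direction of most genes turns if those medians are set to 0.

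The order of the genes was similar in the lines. Across the 40 genes the log2 ratios of KO1 and KO2 were related with Pearson r = 0.84 and Spearman rho = 0.78, a description over genes measured in the same libraries. The loss was larger in KO2 than in KO1 in the median (-0.85 against -0.61), as it was over all tested regions. By the study's own thresholds, a log2 ratio below -0.58 with more than 20 reads, 22 of the 45 regions were lost in both lines (48.9%), against 63.4% of all regions, 76.3% of promoter regions and 80.4% of those High in both lines. The lines differed here, with 22 lost in KO1 and 44 in KO2. They also differed over all 22343 regions, with 14229 lost in KO1 and 21765 in KO2. Of the 6408 regions High in both lines 5157 were lost in KO1 and 6355 in KO2.

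For 7 further proteasome genes the start lies under a region that is named for a neighbouring gene, so that the rule does not take them in. These regions had mean log2 ratios between -1.38 (Psmb9, under Tap1) and -0.47 (Psma2, under Mrpl32), and all 7 were lower in +HOT of both lines. Psma4 had a ratio of -0.90, Psmc5 of -0.77, Psmd13 of -0.97, Psme2, the partner of Psme1, of -0.89 and Psmg2, the partner of Psmg1, of -0.92. No H3K4me3 region covered the starts of Psma8 and Psmb11, which encode the testis and thymus forms of a core subunit.

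Genes that act with the proteasome were taken from 4 lists, with the strongest region of each gene. Of the regulators of proteasome gene transcription 7 of 8 fell and 0 rose (median log2 ratio -1.01). They ranged from Ngly1, the glycosidase that activates Nrf1 (-1.39), to Stat3 (-0.70), and the gene of Nrf1, Nfe2l1, had 323 and 904 reads in +HOT of KO1 and KO2 against 557 and 2153 in -HOT (-1.02). Of the ubiquitin genes, E1 enzymes and shuttle factors 5 of 11 fell and 0 rose (median -0.71), and the shuttle factor gene Ubqln2 had the lowest ratio (-1.35). Of the partners that bind the proteasome 3 of 7 fell and 0 rose (median -0.75), from the ligase Ube3c (-1.13) to Txnl1 (-0.62). Of the antigen-processing genes 4 of 6 fell and 0 rose (median -1.22), from the peptide-trimming enzyme Erap1 (-1.61) to B2m (-0.52). The same test called as fallen 85.2% of promoter regions, and with the scaling to the median these ratios shift upward by the same amount as those of the proteasome genes.

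With the authors' scaling H3K4me1 changed the other way from H3K4me3. With the median of all regions of each mark set to 0, the proteasome medians were 0.65 for H3K4me3 and 0.92 for H3K4me1. Of the 57 H3K4me1 regions over proteasome H3K4me3, 49 passed the read minimum and 41 of them rose by limma, while 0 fell. At an unadjusted p under 0.05 in limma 1 fell, against 4562 of all 78691 and 843 of the 18184 over any H3K4me3 region. By edgeR with TMM 1 fell, against 7.97% of all and 4.86% of those over any H3K4me3 region. Among all 78691 tested H3K4me1 regions 14.8% rose and 2.57% fell, and among those over any H3K4me3 region 58.2% rose and 2.78% fell. The median log2 ratio was 1.12 for the proteasome regions, 0.88 for those over any H3K4me3 region and 0.18 for all. Of the 49, 11 had 20 reads or fewer in -HOT of at least 1 line. They entered the test through +HOT of that line, where they had to be higher, and all 11 rose. Of the 38 with more than 20 reads in every library 30 rose, with a median of 1.03. The share of all H3K4me1 regions under that filter was not computed, so that nothing about the proteasome genes is drawn from this count. By the study's thresholds 41 of the 57 were gained in both lines (71.9%), against 9.76% of all H3K4me1 regions and 46.8% of those over any H3K4me3 region. With the median of all H3K4me1 regions set to 0, 30 of 49 were higher in +HOT, against 9.59% of all H3K4me1 regions and 40.9% of those over any H3K4me3 region. Without the block 17 of 49 rose, against 6.37% of all and 27.5% of those over any H3K4me3 region. With DESeq2's size factors 16 rose, against 5.73% of all and 24.8% of those over any H3K4me3 region.

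The largest rises were in short regions inside the H3K4me3 region, where H3K4me1 was nearly absent in -HOT. At Psmd3 a region centred 629 bp downstream of the start had 41 reads in KO1 +HOT against 5 in KO1 -HOT, and 78.2 in KO2 +HOT against 3 in KO2 -HOT (log2 ratio 3.56, standard error 0.302, limma adjusted p = 9.55e-07). At Psmb3 a region centred upstream, at -561 bp from the start, had 39 and 54.5 reads in +HOT of KO1 and KO2, against 3 and 5 in -HOT (3.27). At Psmb7 a region 532 bp downstream had 43 and 89.1 reads in +HOT, against 11 and 6 in -HOT (2.78). At Psma5 a region over the start had 50 and 70.9 in +HOT, against 12 and 8 in -HOT (2.49), and at Psma3 one centred 898 bp downstream had 53 and 75.5 in +HOT, against 9 and 15 in -HOT (2.34). In each of these 5 the 2 +HOT libraries lay above the 2 -HOT libraries. All 5 passed the read minimum through +HOT alone, so that they had to differ, and their place at the top is a description. Counts this low in -HOT make the size of the ratio imprecise, and with a pseudocount of 5 the ratio was 2.79 for Psmd3, 2.52 for Psmb3, 2.34 for Psmb7, 2.12 for Psma5 and 2.03 for Psma3.

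No relation between the position of an H3K4me1 region and the size of its change is drawn from these values, since the read minimum bears on it. Among the tested regions 15 of 15 that cover the start rose (median 1.11), 15 of 16 centred within 1000 bp downstream of it (median 1.505, the exception being Psmc6 at 0.73), 7 of 10 centred farther downstream (median 1.10) and 4 of 8 centred upstream (median 0.66). The 11 regions with 20 reads or fewer in -HOT fall unevenly on these groups, with 8 of them in the group within 1000 bp downstream. Without them that group had a median of 0.92 (7 of 8 rose), which is below that of the regions farther downstream, and the upstream group one of 0.47 (2 of 6 rose). All 11 lie wholly inside the H3K4me3 region. The inside regions had a median of 1.80 with them and 1.36 without (7 of 8 rose), and the regions reaching past the edge, which hold 0 of the 11, had one of 0.94 (23 of 30 rose). These groups were formed after the values were seen and their difference was not tested. The shares over all H3K4me1 regions in the same positions were not computed, so that nothing about the proteasome genes is drawn from these counts.

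At 5 genes (Psmb1, Psmb7, Psmc3, Psmd3 and Psmd4) 1 or more H3K4me1 regions did not pass although another rose. At Psmb7 the outer region centred 1298 bp downstream had 28 reads in KO1 +HOT against 35 in KO1 -HOT, and 29.1 in KO2 +HOT against 53 in KO2 -HOT (-0.58, adjusted p = 0.133), and the upstream flank had a ratio of 0.26. At Psmd3 the outer region centred 1611 bp downstream had 44 reads in KO1 +HOT against 39 in KO1 -HOT, but 32.7 in KO2 +HOT against 52 in KO2 -HOT (-0.24, adjusted p = 0.603). At Psmd4 the region inside rose by 1.80 and the upstream flank had a ratio of 0.19. No gene had H3K4me1 regions that passed the test in opposite directions.

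**Figure D3:**
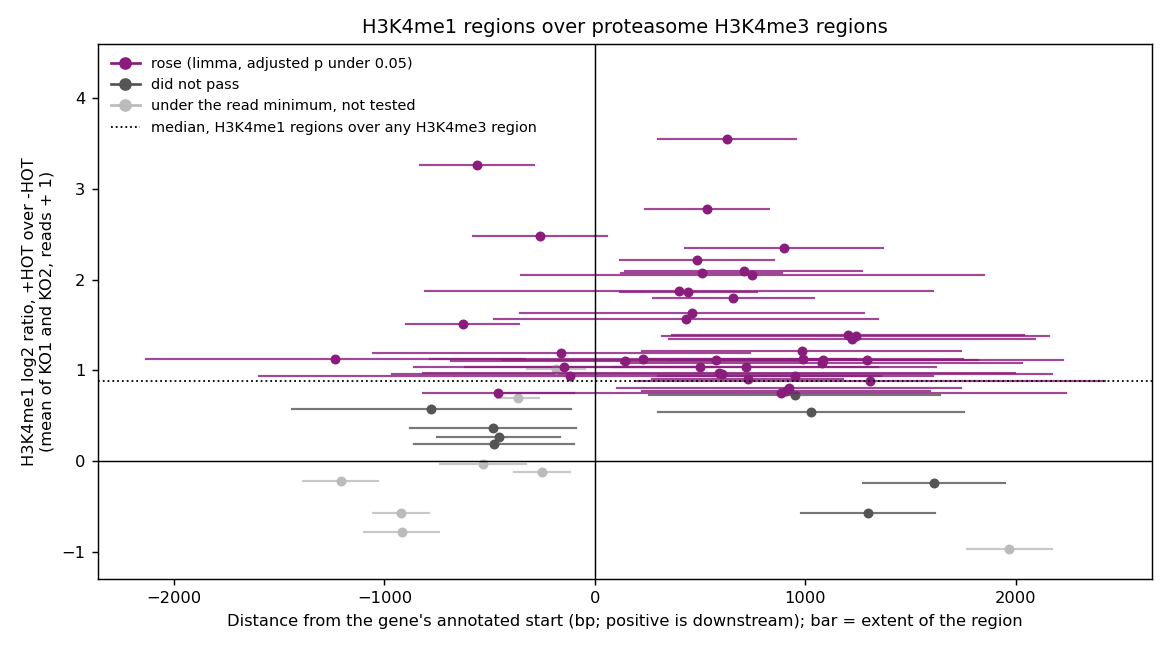
H3K4me1 log2 ratio of +HOT over -HOT (mean of KO1 and KO2) for the 57 regions over proteasome H3K4me3, against the distance of the region from the annotated start in bp, with a bar for its extent. Purple regions rose by limma, dark grey ones did not pass and light grey ones were not tested. The highest points, between 2.78 and 3.56, had 11 reads or fewer in -HOT, and the points below 0 belong to regions that do not cover the start.

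Both marks were then set side by side for the 39 genes whose strongest H3K4me3 region holds H3K4me1, with the H3K4me1 reads summed over the overlapping regions. With the authors' scaling H3K4me1 was higher and H3K4me3 lower in +HOT of both lines at 38 of the 39. The share over all genes was not computed. With the median of all H3K4me3 regions set to 0, the H3K4me3 median of the tested proteasome regions was 0.65. The direction of H3K4me3 at most of these genes thus turns with the scaling. The summed H3K4me1 ratio ranged from -0.12 to 2.21 with a median of 1.10. Psmb5 had the highest, with 32 reads in KO1 +HOT against 6 in KO1 -HOT and 62.7 in KO2 +HOT against 13 in KO2 -HOT. Psmd14 (2.09), Psmc4 (2.08) and Psmb10 (2.05) came next, with differences smaller than their spread between lines. The immunoproteasome genes differed from each other, since at Psmb10 H3K4me1 was 141 and 198 reads in +HOT of KO1 and KO2 against 41 and 38 in -HOT (limma adjusted p = 1.74e-05), while at Psmb8, with the largest loss of H3K4me3, it was 14 and 10.0 in +HOT against 12 and 14 in -HOT and too low to be tested. The lid gene Psmd6, with the H3K4me3 ratio nearest to 0, rose in H3K4me1 (80 and 109 in +HOT against 48 and 49 in -HOT, 0.93). Across the 39 genes the 2 changes were hardly related (Pearson r = 0.09, Spearman rho = -0.16, a description over genes of the same libraries). For Psmd1 H3K4me1 values could be used in KO2 only, with 165 reads in +HOT against 80 in -HOT.

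**Figure D4:**
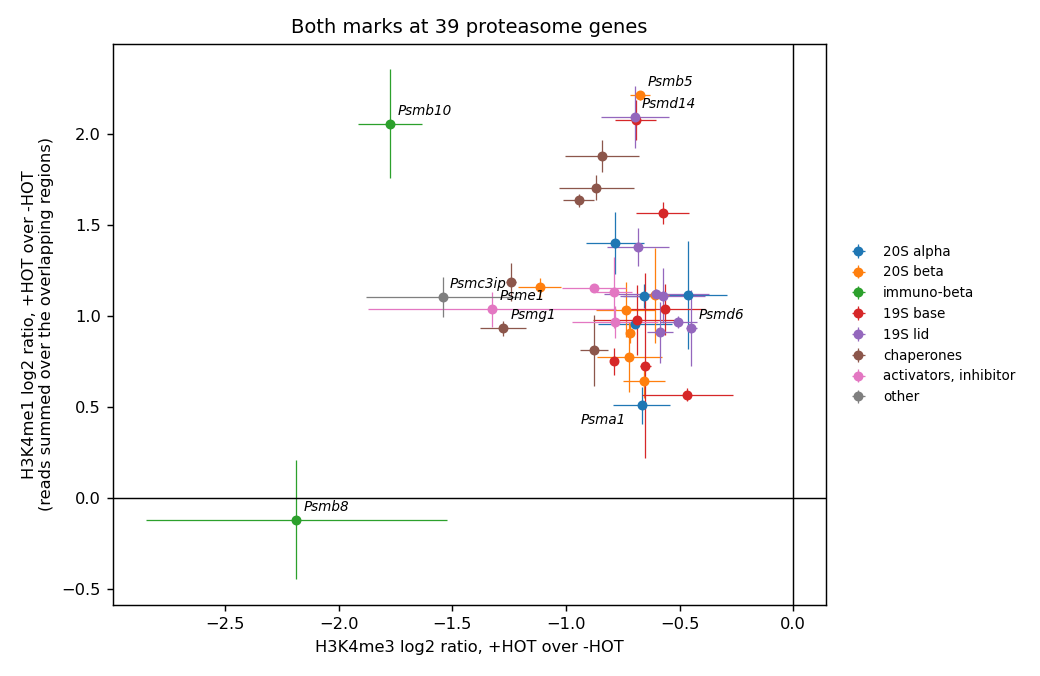
Summed H3K4me1 log2 ratio against H3K4me3 log2 ratio, +HOT over -HOT, for 39 proteasome genes coloured by role. Points are means of KO1 and KO2 and bars reach to the value of each line. Most 20S and 19S genes gather between -0.8 and -0.4 for H3K4me3, while their H3K4me1 ratios spread from about 0.5 to 2.2.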

How the data were processed

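The values of 8 of 20 libraries were used. The deposited signal is the read count per region, which the study normalized to the lowest coverage. For H3K4me3 the counts were divided by 1.333 in KO1 -HOT and by 1.01 in KO2 -HOT. For H3K4me1 they were divided by 1.1 in KO2 +HOT. The counts of the other libraries used are unscaled. These include both KO1 libraries of H3K4me1, with 7939532 reads in regions in +HOT and 6157647 in -HOT. Per the study's methods and the labels, reads were aligned to mm9 with BWA, regions were called with Macs2, and promoters were annotated with Homer. Multiplied by 1 factor per library, 100% of the deposited values were whole counts within 0.001. The other 12 libraries (WT and input) were not analysed here, nor were the authors' fold change columns, lists of lost and gained regions and tables over promoter groups, which hold their own comparisons. In the deposited H3K4me1 table of KO1 a stretch of 1 chromosome has coordinates that are not whole and was left out, so that 117165 of 122780 regions were used. The distance to the TSS and the level lists (High, Medium, Low) were taken as deposited.

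A region was tested if each line had over 20 reads in at least 1 condition. The test was limma (3.58.1, R 4.3.3), blocked by line and fitted to log2(value + 1), and p-values were adjusted after Benjamini-Hochberg over all tested regions of a mark (threshold 0.05). The pairing comes from the shared cell line, and libraries of 1 line deviated together (correlation 0.587 for H3K4me3, 0.58 for H3K4me1). Alternatives were another pseudocount, read minimum, threshold or overlap, the median set to 0, no block, a trend, edgeR 4.0.16 and DESeq2 1.42.0 on the recovered counts, and each line alone. Tests were checked on simulated data. Sequence came from the mm9 reference with GENCODE vM1, and Python 3.11.15, numpy 2.4.6, pandas 2.3.3 and matplotlib 3.10.9 were used. The start is that of the deposited annotation, except for Psmc1, where GENCODE was used.

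Named genes are, per role, those with the lowest, median and highest ratio, the catalytic, inducible, activator and inhibitor genes, genes with several regions, the 5 largest H3K4me1 changes, and the extremes of each list, of which 1 is not reported here. Members, lists and rules were chosen with earlier results of these data known. Further genes (Psmd7, Psmd14, Psmb4, Psmd5, Psmd9, Psmd10, Psmg4 and the flanks of Psmd4 and Psmb7) were named after their values were seen.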

Additional observations from a re-analysis of the deposited data

Results flagged for a closer look

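At 7 of the 102 proteasome regions KO1 and KO2 moved in opposite directions. With 1 library per line and condition the difference between the lines was not tested, and 4 of the 7 lie under the read minimum. The weak second H3K4me3 region of Psmd12 had a log2 ratio of 0.074 in KO1 and -1.57 in KO2. For H3K4me1 the region of Psmb3 centred at -1208 bp from the start had 0.30 in KO1 and -0.74 in KO2, that of Psmb8 had 0.21 and -0.45, and that of Psmd11 had 0.22 and -0.30. Among the tested ones, the upstream region of Psmc3 had -0.10 in KO1 and 0.83 in KO2, that of Psmd4 had 0.55 and -0.17, and the outer downstream region of Psmd3 had 0.17 and -0.65. Groups of 2 libraries are too small for a search for single samples that stand apart.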

How the results depend on the processing

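The read depth and 1 library per mark, line and condition limit these results, and a common shift of a mark cannot be told apart from scaling. The number of proteasome H3K4me3 regions fallen by limma was 13. It was 29 (of 40 tested) with more than 50 reads, where 12726 of all 13387 tested regions fell and 5820 of 6408 High in both lines. It was 38 with a trend and 39 with edgeR on the authors' scaling. It was 2 with the median of all regions set to 0, 2 with TMM and 1 with DESeq2's size factors. Without the replicate block the pairing by line is ignored, and the difference in reads between the lines enters the spread. Then 0 H3K4me3 regions fell, and 17 H3K4me1 regions rose against 41 with the block. With no read minimum 18 of 57 H3K4me1 regions rose, against 4977 of all 117165 and 4896 of 22089 over any H3K4me3 region. With DESeq2's size factors 16 H3K4me1 regions rose, and with TMM 1 fell. With a log2 threshold of 1, 7 H3K4me3 regions were lost and 22 H3K4me1 regions gained in both lines, and with the median set to 0, 0 H3K4me3 regions were lost. The shares over all regions at these settings were not computed, so that nothing about the proteasome genes is drawn from these counts. With 1 line left out the lost regions numbered 22 to 44 and the gained ones 42 to 45, with H3K4me3 medians of -0.85 to -0.61. Of all 22343 H3K4me3 regions 14229 to 21765 were then lost. Of the 22089 H3K4me1 regions over any H3K4me3 region 12229 to 12625 were gained. The limma counts could not be recomputed with 1 line left out, since 1 pair leaves no residual degrees of freedom. The H3K4me1 median of 1.12 was 1.07 with a pseudocount of 5, 1.04 with no read minimum and 0.92 with the median set to 0.

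With the median set to 0 the H3K4me3 median of proteasome regions changed sign to 0.65. So did the ratios of Psma1 (0.68), Psma3 (0.88), Psma5 (0.56), Psmb3 (0.23), Psmb4 (0.73), Psmb5 (0.67), Psmb6 (0.62), Psmb7 (0.69), Psmc1 (0.88), Psmc4 (0.65), Psmc6 (0.69), Psmd2 (0.55), Psmd3 (0.84), Psmd5 (0.50), Psmd6 (0.89), Psmd8 (0.66), Psmd11 (0.76), Psmd12 (0.74), Psme1 (0.018), Psme3 (0.56), Psme4 (0.47), Psmf1 (0.56), Psmg1 (0.066) and Psmg3 (0.40). This follows from the construction of that scaling, which adds the same value to every region of a line. The causes of the other differences were not tested.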
